A study of Oryza sativa with 8 samples.

Results

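Rice loci that encode the enzymes writing and erasing DNA methylation were examined for differentially methylated regions (DMRs), and 1 of the 10 loci chosen was listed with a DMR. They were 3 DRM loci, 2 MET1 loci, 2 CMT loci and 3 ROS1 loci, chosen by their MSU locus identifiers and looked up among the 19182 genes listed with a DMR in any comparison. The listed locus, OsDRM1b, is a gene that the study itself had picked from its genes with DMRs, so its listing was known beforehand. The study's primer list names OsDRM1b, OsDRM2, OsDRM3, OsMET1 and OsCMT3, and the family of the other 5 loci was taken as chosen, without an annotation of the build to check it. The study measured whole-genome bisulfite sequencing, which reads unmethylated cytosines as thymine, in leaf DNA of mature plants of the japonica cultivar WYG7 and of Ox1, a line in the WYG7 background with added OsNAR2.1, a partner protein of nitrate transporters, under its own native promoter. Ox1 is a single transgenic line. Plants of both lines came from parent seeds of high N content (HN) or low N content (LN). The HN seeds were harvested from plants given 300 kg N/ha and the LN seeds from plants given no N fertilizer. Seed N content therefore cannot be told apart from the fertilizer treatment of the parents. Plants from each kind of seed grew in a field given 300 kg N/ha (HN field) or in a field given no N fertilizer (NN field). There were 8 libraries, 1 for each of these combinations, so no difference has a replicate error and no test across samples was made. Each comparison set the LN against the HN parent seed library of 1 line in 1 field, and no library was shared between the 4 comparisons, named here by field and line. The GEO labels call the tissue shoot and the study's methods call it leaf. Markers of the tissue could not be checked, since the lists carry positions of DMRs and no expression values.

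In plants, DRM enzymes place methyl groups on new sites with small RNAs as guides, in the pathway called RNA-directed DNA methylation. MET1 copies methylation at CG sites onto the new strand after DNA replication, and CMT enzymes keep methylation at CHG and CHH sites, where H is any base but G. ROS1-type enzymes are DNA glycosylases that cut out methylated cytosines, so that an unmethylated base can be put in by repair. In Arabidopsis the ROS1 gene is itself regulated by methylation near its promoter. The comparisons ask whether plants of low-N parent seed differ in methylation at the genes of these enzymes.

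The DMR lists held between 19765 and 28880 DMRs per comparison, with median lengths from 225 to 237 bp. A hyper-DMR was read as more methylated in the library from LN parent seed, and a hypo-DMR as less, each relative to the HN parent seed. How deeply a DMR was covered, how large its difference was and in which cytosine context it lay are unknown, as the lists hold positions and directions alone. The files do not name the reference library of a direction. The study's text gives it as HN parent seed, but a heading of the study states the opposite excess for Ox1 in each field. The study's supplement counts methylated and valid cytosine sites per library. The methylated part was larger with LN seed in both HN-field lines and NN-field Ox1, and smaller in NN-field WYG7. Hyper-DMRs made up 45.9% of the list of HN-field WYG7, 75.4% of HN-field Ox1, 64.5% of NN-field WYG7 and 33.7% of NN-field Ox1. Only in HN-field Ox1 did sites and DMRs lean the same way. These counts cover all sites, so this reading was not checked at the DMRs, and every direction given here depends on it. A locus in no gene table is described here as having no listed DMR over its body or 1000 bp promoter. Differences below the authors' limits were not detectable from these lists. The lists hold as many DMRs and genes per comparison as the study reports. Whether the study's gene lists cover every gene with a DMR was not tested.

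In the HN field, 0 of the 10 loci were listed for either line. Of the genes listed in any comparison, 56.0% were in the HN-field table of WYG7 and 54.9% in that of Ox1. These shares leave out genes that were never listed and are therefore too high for a locus chosen by its function. Against all 63123 locus numbers up to the last listed number of each chromosome, 17.0% (WYG7) and 16.7% (Ox1) were listed. This second share is on the low side, because not every number need be in use. In the NN field, 1 of the 10 loci was listed for WYG7, beside 57.0% of the genes listed in any comparison and 17.3% of the locus numbers. None was listed for NN-field Ox1, beside 40.9% and 12.4%. Over all comparisons, 9 of the 10 loci were in no table, and 69.6% of the locus numbers were in no table either. Of the families, DRM had 1 listed locus of 3, MET1 had 0 of 2, CMT had 0 of 2 and ROS1 had 0 of 3. Since the listing of OsDRM1b was known beforehand, the counts that include it cannot be weighed against these shares.

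The listed locus was OsDRM1b (LOC_Os12g01800), 1 of the 3 DRM loci. Its interval in the WYG7 table of the NN field ran from 482987 to 486738 on chromosome 12 (build IRGSP-1.0), or 3752 bp, close to the median interval of 3705.5 bp among all listed genes. It held 1 hyper-DMR, from 485258 to 485937. This DMR was 680 bp long and covered 18.1% of the interval. Of all DMRs of NN-field WYG7, 4.83% were at least as long (1270 DMRs), and of its hyper-DMRs 4.65% were. The DMR began 2271 bp after the lower end of the interval and stopped 801 bp before the upper end.

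The tables give no strand, so it was worked out what each strand would mean for the position of this DMR. If the promoter were the first 1000 bp of the interval, the DMR would lie wholly in the gene body. If it were the last 1000 bp, 199 bp of the DMR would lie in the promoter and the other 481 bp in the gene body. In both cases the larger part of the DMR lay in the body of OsDRM1b. Exons and introns were not assigned, since no annotation of this build was used here.

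**Figure D1:**
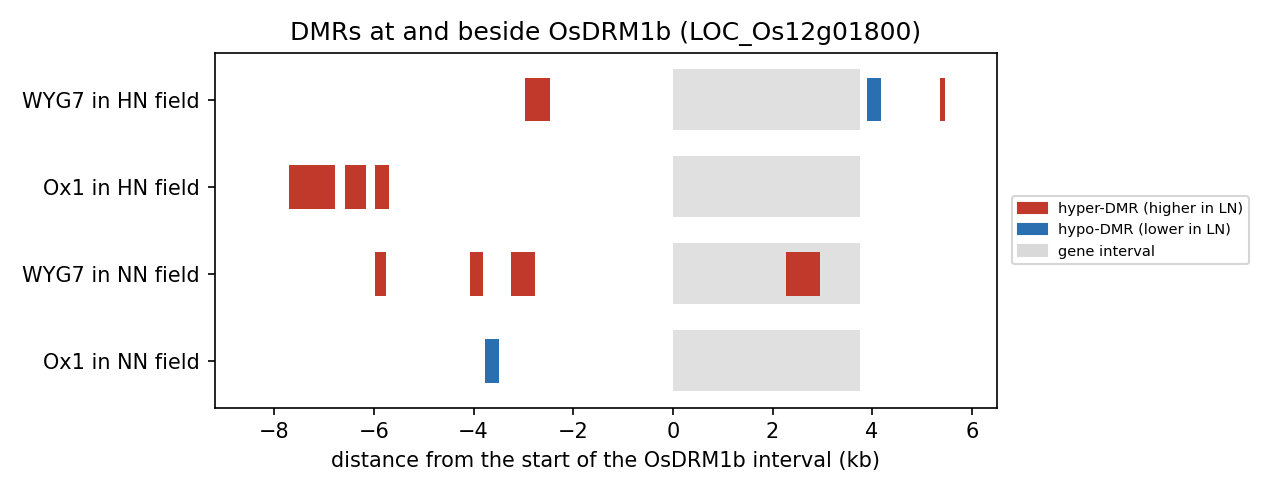
DMRs at and beside OsDRM1b in the 4 comparisons, by distance in kb from the lower end of its interval (grey). Red bars are hyper-DMRs and blue bars hypo-DMRs, drawn to their length, and the 680 bp hyper-DMR of NN-field WYG7 is the only DMR inside the interval.

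In the other 3 comparisons no DMR touched the OsDRM1b interval by even 1 bp, though the closest one was 136 bp away. For HN-field WYG7 a hypo-DMR of 284 bp, from 486875 to 487158, was that closest one, past the upper end, and a hyper-DMR of 100 bp lay from 488352 to 488451. That hypo-DMR differed in direction from the NN-field DMR of WYG7, and since it lay outside the interval it was not counted for the gene. Below the interval, the nearest DMR of HN-field WYG7 was a hyper-DMR 2470 bp away. For HN-field Ox1 the nearest DMR was a hyper-DMR 5700 bp below the interval, and above it none was listed for 123 kb. For NN-field Ox1 the nearest was a hypo-DMR 3497 bp below, and above it none was listed for 84.4 kb. NN-field WYG7 also had a hyper-DMR 2775 bp below the interval. Thus in WYG7 DMRs were listed inside or within 136 bp of the interval in both fields, and in Ox1 none was within 3497 bp in either field. Whether the lines differed here was not tested.

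Listed loci on both sides of OsDRM1b also carried DMRs. LOC_Os12g01790, the next listed locus below, from 477528 to 482911, was listed in 3 of the 4 tables. Its WYG7 DMRs were hyper, 1 in the HN-field list and 2 in the NN-field list, and NN-field Ox1 gave a hypo-DMR of 277 bp. LOC_Os12g01780 had 3 hyper-DMRs in HN-field Ox1 and 1 in NN-field WYG7. On the upper side the next listed locus was LOC_Os12g01860, with 1 hyper-DMR of 227 bp in HN-field WYG7. In NN-field WYG7, every DMR listed at OsDRM1b and at LOC_Os12g01780 and LOC_Os12g01790 was hyper, 4 DMRs in all, in a list where 64.5% of all DMRs were hyper. The end of the short arm of chromosome 12 is known in rice as a recent duplicate of the end of chromosome 11. Reads of both copies may therefore be mixed here, which was not tested.

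Other genes had the same pattern of listing as OsDRM1b. Of all genes, 2252 were listed for NN-field WYG7 and in no other table. In 1649 of these, all DMRs were hyper, and in 1502 there was exactly 1 hyper-DMR. Only 50 of those 1502 had a DMR of at least 680 bp, as OsDRM1b had. Genes of like pattern were to be named for members with DMRs in at least 2 comparisons, and 0 members met this.

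The other 9 loci had no listed DMR in any comparison, and their exact intervals are not in the tables. MSU numbers follow the position along a chromosome, and 99.44% of adjacent listed loci were in position order. Each unlisted locus was therefore placed in the gap between the next listed gene below and the next above, and the DMRs wholly inside that gap were counted. By the rule of the tables, a DMR in a gap lay outside the interval of the unlisted locus or touched it by less than 52 bp, the smallest overlap among listed genes. These gaps ran from 25.7 to 284 kb (median 38.8 kb) and made up 601 kb. They were wider than the median of 8.28 kb over all gaps between listed genes, which is partly given by the choice, because a wide gap holds more unlisted loci.

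Inside these 9 gaps there were 31 DMRs over the 4 comparisons, and 3 gaps held none. The DMRs were 103 to 713 bp long (median 207 bp). For HN-field WYG7 there were 7, or 1.16 per 100 kb of gap, against 3.62 per 100 kb over all gaps. For HN-field Ox1 there were 7, or 1.16 against 3.01. For NN-field WYG7 there were 9, or 1.5 against 3.19, and for NN-field Ox1 8, or 1.33 against 2.47. A low density is partly built into the choice, since each of these gaps was taken because it holds a locus without a listed DMR, and nothing particular to these loci can be read from it. The widest gap, around OsDRM2, made up 284 of the 601 kb. Without it the values were 1.58 per 100 kb (HN-field WYG7) and 1.89 per 100 kb (each other comparison). Gaps on all parts of the chromosomes enter the second value, and gene-rich and gene-poor parts were not separated.

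**Figure D2:**
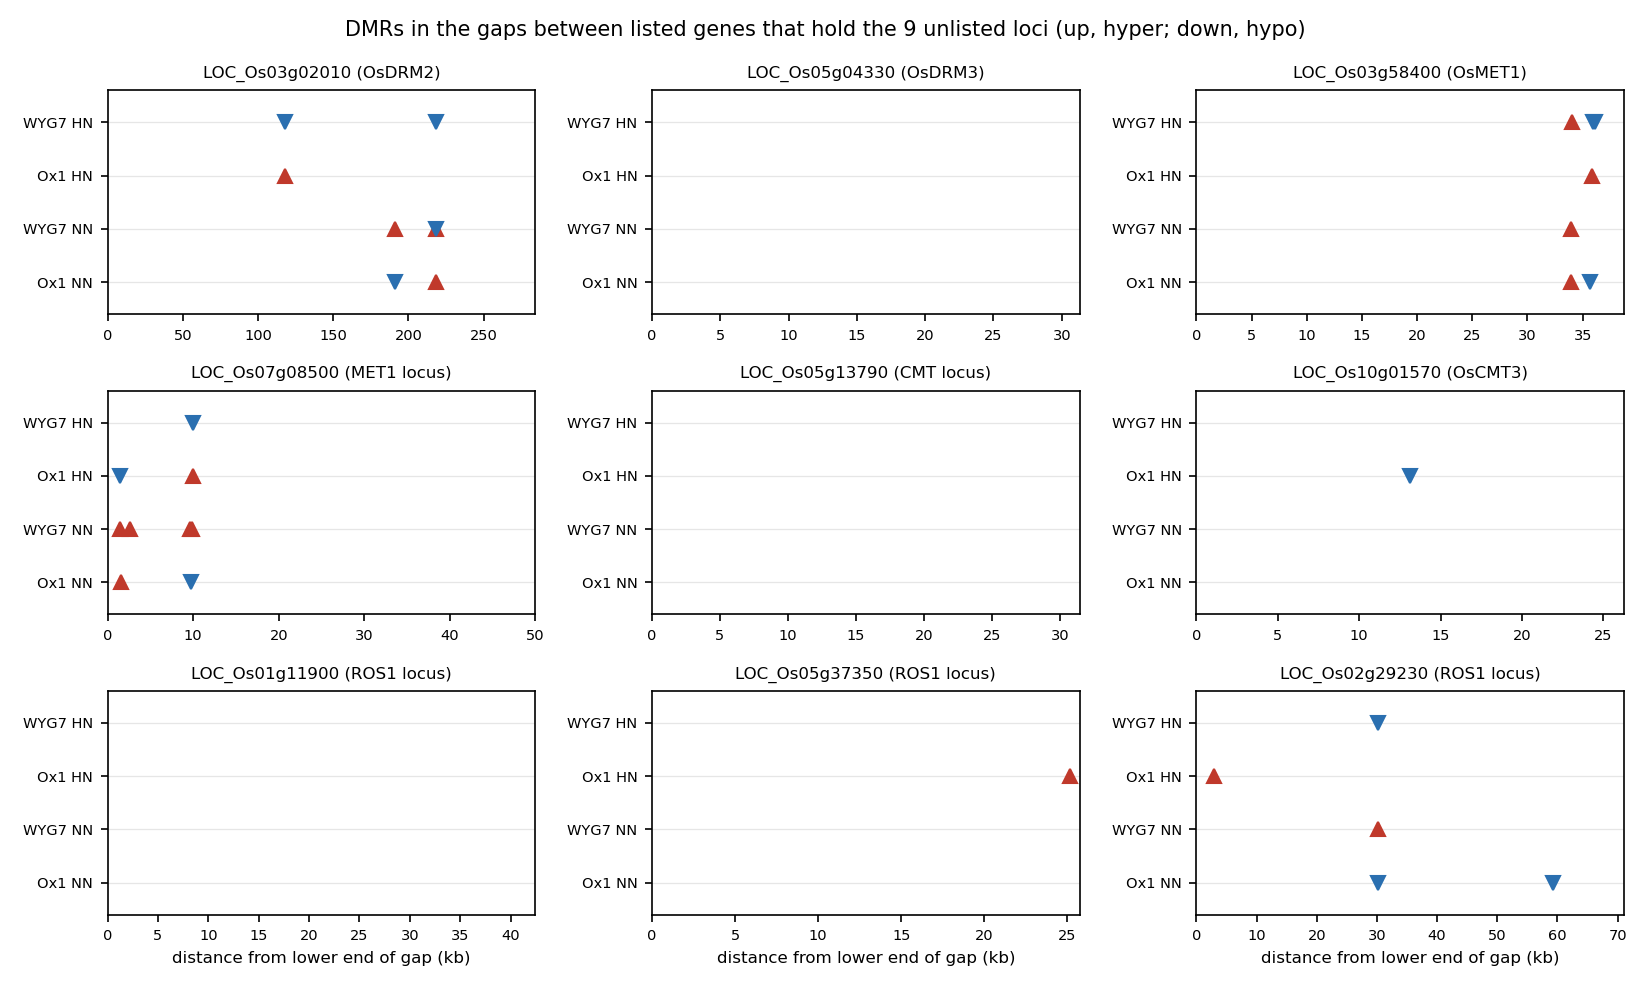
DMRs in the gaps that hold the 9 unlisted loci, by distance in kb from the lower end of each gap, with 1 row per comparison (line and field). Upward red triangles are hyper-DMRs and downward blue triangles hypo-DMRs, placed at their middle. The gaps of OsDRM3, LOC_Os05g13790 and LOC_Os01g11900 are empty.

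OsDRM2 (LOC_Os03g02010), the main de novo methyltransferase, lay in a gap of 284 kb on chromosome 3, from 398441 to 682779. Only 5 of all 17104 gaps were as wide, and 47 locus numbers in a row were unlisted there. Of the 20 nearest locus numbers, 0 were listed in any of the 4 comparisons. Whether the study's gene lists leave out genes of this stretch, in which DMRs were listed, was not tested. The gap held 8 DMRs wholly inside it, at 3 places, the closest of them 65.7 kb from an end. At its upper end, hypo-DMRs of WYG7 reached into it from LOC_Os03g02120, by 31 bp in the HN-field list and 21 bp in the NN-field list. At the first place, HN-field WYG7 had a hypo-DMR from 516403 to 516766 and HN-field Ox1 a hyper-DMR from 516500 to 516727. At the second, NN-field WYG7 had a hyper-DMR from 589673 to 589807 and NN-field Ox1 a hypo-DMR from 589718 to 589924. At the third, from 616517 to 617077, NN-field Ox1 had a hyper-DMR over the whole stretch. NN-field WYG7 had a hyper-DMR next to a hypo-DMR there, and HN-field WYG7 had a hypo-DMR. Each place thus carried both directions.

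OsDRM3 (LOC_Os05g04330), a DRM-type protein that in Arabidopsis lacks catalytic activity and assists de novo methylation, lay in a gap of 31.3 kb on chromosome 5, from 1961922 to 1993242. No DMR lay inside it in any comparison. A hypo-DMR of NN-field WYG7 reached 5 bp into the gap from LOC_Os05g04320. The surroundings were not poor in DMRs, since 10 of the 20 nearest locus numbers were listed in at least 1 table. The next listed gene below, LOC_Os05g04320, was listed in all 4.

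OsMET1 (LOC_Os03g58400), 1 of the 2 loci of the MET1 family that maintains CG methylation, lay in a gap of 38.8 kb on chromosome 3, from 33261271 to 33300020. The first 33.8 kb of the gap were free of DMRs in all comparisons, and all 7 DMRs lay in the remainder. Few genes around it were listed, 3 of the 20 nearest locus numbers. A hyper-DMR was found at 1 place in 3 comparisons, with HN-field WYG7 from 33295122 to 33295425, NN-field WYG7 from 33295136 to 33295392 and NN-field Ox1 from 33295080 to 33295400. Counting only DMRs wholly inside the 9 gaps, this was the only place where DMRs of several comparisons all had the same direction. Further up, HN-field WYG7 had a hypo-DMR from 33297105 to 33297309 and another from 33297331 to 33297469. HN-field Ox1 had a hyper-DMR from 33297020 to 33297264, which overlapped the former, and NN-field Ox1 a hypo-DMR from 33296925 to 33297027.

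LOC_Os07g08500, the other locus of the MET1 family, lay in a gap of 50.0 kb on chromosome 7, from 4361318 to 4411321, with 9 DMRs, the most of any of the 9 gaps. All lay in the lower part, and the upper 39.9 kb were free of DMRs. From 4371031 to 4371404 there was a DMR in each of the 4 comparisons, the only such place. WYG7 was hypo there in the HN field and hyper in the NN field, and Ox1 was hyper in the HN field and hypo in the NN field. From 4362593 to 4362913 both NN-field lists had a hyper-DMR and HN-field Ox1 a hypo-DMR. All 4 DMRs of NN-field WYG7 in this gap were hyper, and those outside the shared places were 240 and 110 bp long, from 4363777 to 4364016 and from 4370884 to 4370993.

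The gaps of the CMT loci, whose enzymes act on CHG and CHH sites, held 1 DMR in all. LOC_Os05g13790 lay in a gap of 31.4 kb on chromosome 5, from 7627822 to 7659263, with no DMR in any comparison. The same gap holds LOC_Os05g13780, the locus that the study's primer list gives for OsCMT2, which was in no table either. This empty gap lay in surroundings rich in DMRs, with 11 of the 20 nearest locus numbers listed in at least 1 table. OsCMT3 (LOC_Os10g01570) lay in a gap of 26.3 kb on chromosome 10, from 358990 to 385263. It held 1 DMR, a hypo-DMR of 107 bp in HN-field Ox1, from 372079 to 372185, near the middle of the gap. It is close to the shortest length listed, 100 bp.

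Of the 3 ROS1 loci, which stand for active demethylation, LOC_Os01g11900 had no DMR in a gap of 42.5 kb on chromosome 1, from 6428267 to 6470717, the widest empty gap among those of the 9 loci. Only 4 of the 20 nearest locus numbers were listed in at least 1 table, and 1 to 3 in any single table. LOC_Os05g37350 lay in a gap of 25.7 kb on chromosome 5, from 21837684 to 21863419. The lower 25.1 kb were free of DMRs, and the upper end held a hyper-DMR of 171 bp in HN-field Ox1. Beside it, 3 DMRs reached into the gap from LOC_Os05g37370. Both HN-field lists had a hyper-DMR there, of 306 bp in WYG7 and 608 bp in Ox1, and NN-field Ox1 had a hypo-DMR of 606 bp.

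LOC_Os02g29230 lay in a gap of 71.1 kb on chromosome 2, from 17318312 to 17389393, with 5 DMRs. The longest DMRs of all 9 gaps were at 1 place in it. HN-field WYG7 had a hypo-DMR of 713 bp from 17348098 to 17348810. NN-field WYG7 had a hyper-DMR of 574 bp from 17348203 to 17348776, and NN-field Ox1 had a hypo-DMR of 606 bp from 17348219 to 17348824. By the reading used here, the same stretch was lower in 2 and higher in 1 of the LN libraries, each against its own HN library. The gap also held a hyper-DMR of 131 bp from HN-field Ox1 near its lower end and a hypo-DMR of 123 bp from NN-field Ox1 near its upper end. How far these places lie from the ROS1 locus itself cannot be read from the tables.

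Taking the 9 gaps together, the 31 DMRs fell at 15 places. There were DMRs of 1 comparison only at 7 places, of 2 comparisons at 2, of 3 comparisons at 5 and of all 4 comparisons at 1. Of the 8 places with more than 1 comparison, 7 carried both directions. The share of such places over the complete lists was not computed, so nothing particular to these gaps can be read from this count. Of the 31 DMRs, 24 (77.4%) overlapped a DMR of another comparison. Over the complete lists this share ran from 58.1% (HN-field WYG7) to 69.9% (NN-field Ox1). In the HN-field lists, hyper-DMRs made up 1 of 7 gap DMRs of WYG7 and 5 of 7 of Ox1, beside 45.9% and 75.4% of the complete lists. In the NN-field lists they made up 8 of 9 gap DMRs of WYG7 and 3 of 8 of Ox1, beside 64.5% and 33.7%. The comparison with the lower hyper share in each field was thus the same in the gaps as in the complete lists, which was not tested. DMRs at 1 place are neighbours in sequence, and these small counts are given as a description.

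The number of DMRs around the 10 loci was also counted in windows of 200 kb, centred on the OsDRM1b interval and on the middle of each gap, since the place of an unlisted locus in its gap is not known. The gap itself takes up a part of each window. For WYG7 the median over the 10 loci was 10.5 DMRs per window with HN field plants and 9.5 with NN field plants, against 12 and 13 over all 1860 windows of the genome. For Ox1 it was 14.5 and 8, against 13 and 9. More DMRs than the median window were found around 3 of the 10 loci (HN-field WYG7), 5 (HN-field Ox1), 4 (NN-field WYG7) and 3 (NN-field Ox1), where 46.0% to 49.9% of all windows exceed their median. The loci differed widely among themselves. Around LOC_Os05g37350, WYG7 had 28 and 26 DMRs and Ox1 35 and 27, HN field before NN field, each above the upper quartile of all windows. The window of OsDRM2 held 2 and 3 DMRs of WYG7 and 1 and 2 of Ox1, in the same order, each below the lower quartile. This window lies wholly inside the gap of OsDRM2, so it counts the DMRs of the gap again and is no separate observation. LOC_Os05g13790, in its empty gap, had 20 to 24 DMRs in its window in the 4 comparisons.

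**Figure D3:**
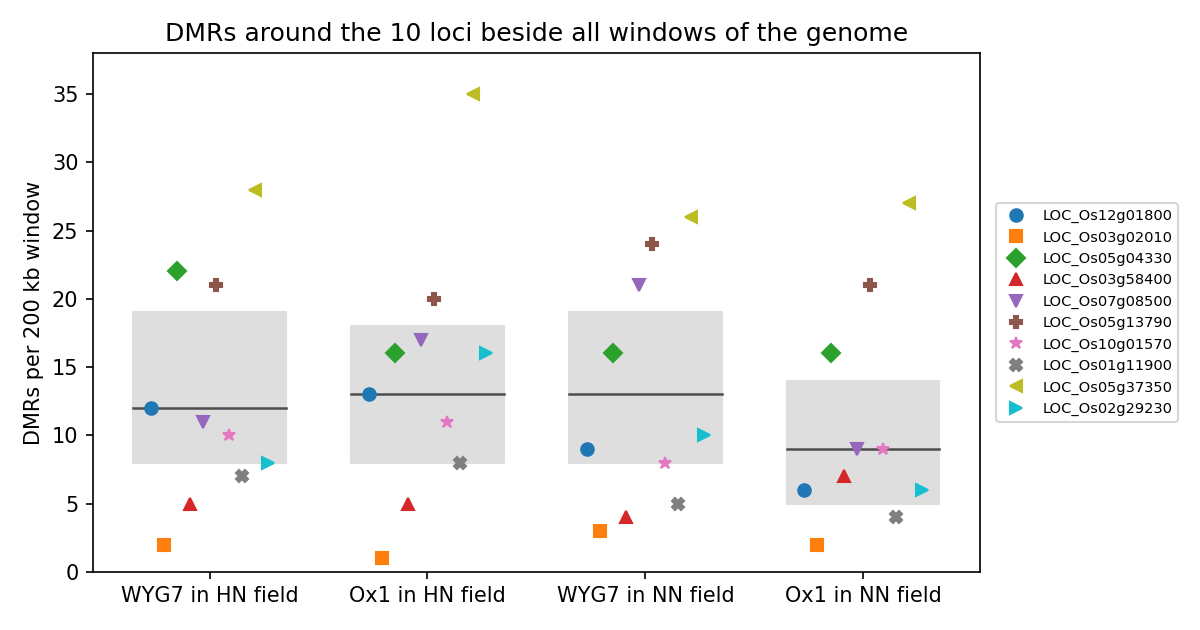
Number of DMRs per 200 kb window around each of the 10 loci (coloured marks) in the 4 comparisons. The line is the median and the grey box the lower to upper quartile of all 1860 windows. LOC_Os05g37350 is highest in every comparison, from 26 to 35, and OsDRM2 (LOC_Os03g02010), whose window lies inside its own gap, lowest, from 1 to 3.

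A list of 17 further loci of DNA methylation and RNA-directed DNA methylation was looked up in the same way. Of these, 2 were in at least 1 table (11.8%) and 15 were in none, against 30.4% of the locus numbers in at least 1 table. HN-field WYG7 and NN-field Ox1 each listed 2 of them, and the other comparisons 1 each. These loci are given by identifier, since neither the study nor the RefSeq gene table pairs them with a name. In the gaps around the 15 unlisted loci there were 38 DMRs in 860 kb, 9 in each WYG7 list, 14 for HN-field Ox1 and 6 for NN-field Ox1, and 6 of the gaps, which ran from 14.2 to 128 kb, held none. This came to 0.697 to 1.63 per 100 kb, a range that overlaps that of the methyltransferase and ROS1 loci.

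The 2 listed loci of this wider list each appeared in 3 of the 4 tables, in contrast to OsDRM1b with 1. LOC_Os01g42630, on chromosome 1 from 24245731 to 24250379, carried a hypo-DMR of HN-field WYG7 from 24249852 to 24250094. Its NN-field DMRs were hyper in either line, with that of WYG7 from 24249654 to 24249790 and that of Ox1 from 24249720 to 24249883. All 3 lay within the last 1000 bp of the interval. The next listed gene above, LOC_Os01g42640, begins just past 24248883, inside this interval and below all 3 DMRs. It was listed for the same comparisons, so which of the 2 genes these DMRs belong to cannot be told. LOC_Os07g16224, on chromosome 7 from 9460476 to 9469108, carried a hypo-DMR of HN-field WYG7 from 9463159 to 9463305. The Ox1 DMRs there were hyper with HN field plants, from 9463678 to 9463940, and hypo with NN field plants, from 9463710 to 9463872, which lay wholly inside the stretch of the former. Both intervals thus carried DMRs of both directions across the comparisons.

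**Figure D4:**
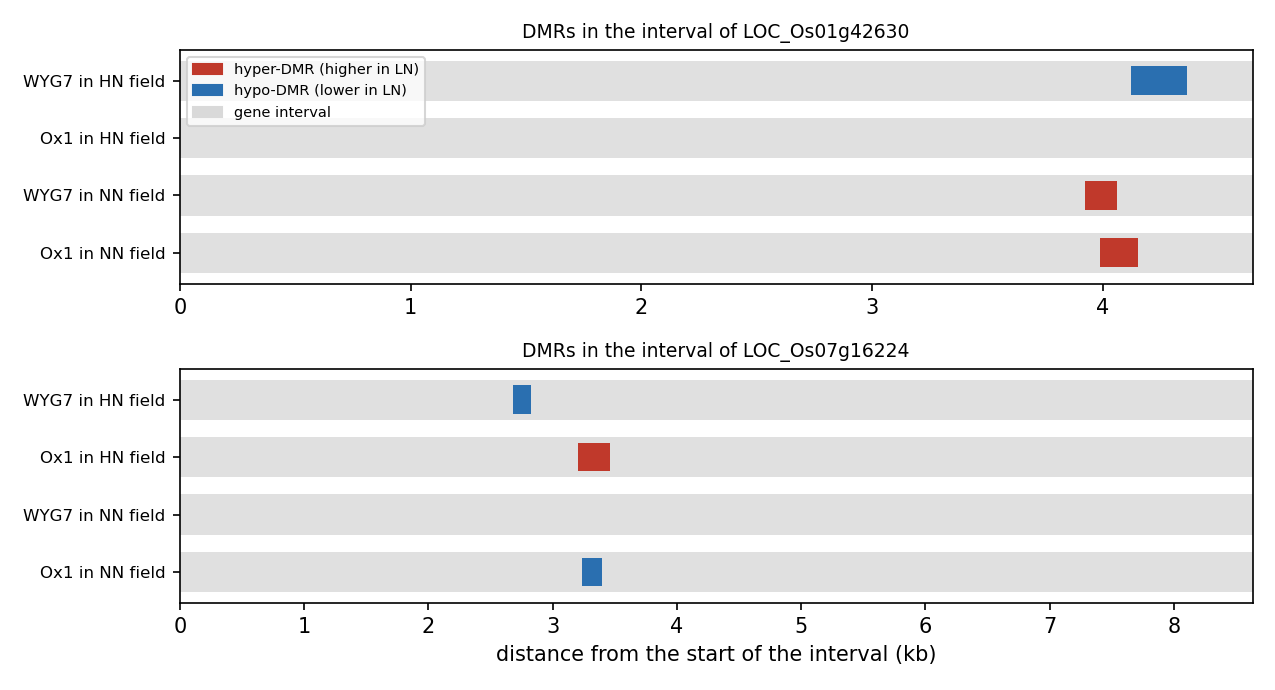
DMRs in the intervals (grey) of the 2 listed loci of the wider list, by distance in kb from the lower end of each interval, with 1 row per comparison. Red bars are hyper-DMRs and blue bars hypo-DMRs, from 137 to 263 bp long, and each locus has DMRs in 3 comparisons.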

How the data were processed

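Reads were trimmed by the authors and aligned to IRGSP-1.0 with Bismark 0.9.0, and DMRs were called with SMART for each LN library against its HN counterpart under minimum coverage, number of cytosines, length, difference and p-value. The deposited lists used hold the chromosome, start, end and direction of each DMR and the interval and MSU locus of each gene with a DMR, and no level or coverage. The annotation version is not given in the sources used here. Start and end were both counted as part of a DMR, which puts the shortest one at 100 bp. Overlaps of 52 bp or more were taken as a DMR of the gene, since every listed gene reached this and genes missing from a table reached at most 51 bp. Counts, gaps and windows were computed with Python 3.11.15, numpy 2.4.6 and pandas 2.3.3, and overlap functions were tested on simulated intervals. Figures used matplotlib 3.10.9.

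The RefSeq gene table (ASM3414082v1) holds no MSU loci. For 6 of the 10 loci the table held 1 gene of that name on the same chromosome. No sequence is shown, since no genome of this build was used here. All 10 loci were named by rule. From the wider list, loci in at least 3 tables, or with at least 3 DMRs in a comparison, were named. The loci and lists were chosen with earlier results of these data known. The alternatives were other overlaps, DMR lengths, merged DMRs, trimmed intervals, gaps and windows. Global methylation levels were not analysed here beyond the site counts of the study's supplement. The study also reports expression of OsDRM1b, OsDRM2, OsDRM3, OsMET1, OsCMT2 and OsCMT3, measured by PCR. Expression was not analysed here.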

Additional observations from a re-analysis of the deposited data

Results flagged for a closer look

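DMRs of opposite direction that overlap by at least 52 bp, in comparisons that share the line or the field, were looked for. The search covered DMRs wholly inside the gaps around the 9 unlisted loci and those in the 2 listed loci of the wider list. DMRs crossing a gap end were left out. Among those left out, a hyper-DMR of HN-field Ox1 (21863355 to 21863962) overlapped a hypo-DMR of NN-field Ox1 (21863298 to 21863903) at the upper end of the gap of LOC_Os05g37350. That pair is not counted below. How many such overlaps the complete lists hold was not counted. With DMRs crossing a gap end left out, there were 11 such overlaps at 5 loci. Each rests on 1 library against 1 library, so these differences between fields or lines were not tested.

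Between the lines in the HN field, WYG7 was hypo and Ox1 hyper over 228 bp in the gap of OsDRM2, over 160 bp in that of OsMET1 and over 104 bp in that of LOC_Os07g08500. Between the lines in the NN field, WYG7 was hyper and Ox1 hypo over 90 bp in the gap of OsDRM2, over 183 bp in that of LOC_Os07g08500 and over 558 bp in that of LOC_Os02g29230, and WYG7 was hypo and Ox1 hyper over 236 bp at another place in the gap of OsDRM2. Between the fields, WYG7 was hypo in the HN field and hyper in the NN field over 574 bp in the gap of LOC_Os02g29230 and over 221 bp in that of LOC_Os07g08500. Ox1 was hypo in the HN field and hyper in the NN field over 131 bp in the gap of LOC_Os07g08500, and hyper in the HN field and hypo in the NN field over 163 bp within LOC_Os07g16224.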

How the results depend on the processing

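The count of listed loci among the 10 and the count of their DMRs were the same in every comparison under all 40 alternatives run, which were overlaps of at least 1 bp or 100 bp, DMRs of at least 200 bp, merged DMRs and intervals without their outer 1000 bp. These could act on OsDRM1b alone, since the other loci have no interval in the tables. Over locus numbers in place of listed genes, the share of genes listed was 17.0% (HN-field WYG7), 16.7% (HN-field Ox1), 17.3% (NN-field WYG7) and 12.4% (NN-field Ox1), below the shares of 40.9% to 57.0% among listed genes. With DMRs of at least 200 bp only, the gaps held 2 in place of 7 DMRs for HN-field Ox1 and 4 in place of 8 for NN-field Ox1. In windows of 400 kb, 5 in place of 3 loci exceeded the median for HN-field WYG7. Gaps and windows, with their alternatives, were chosen after seeing the data. Of 68 alternatives, 61 stayed within 1.5 times the main value and 7 did not. The 61 include the 40 above, which could act on OsDRM1b alone, so all 7 fall among the others. No paired analysis was possible because each condition has 1 library and no test was made. The coverage behind each DMR is unknown.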
